A study of Mus musculus with 19 samples.

Results

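Zinc handling was examined in 9 of the 23284 genes measured: the zinc importers Slc39a1, Slc39a7, Slc39a8 and Slc39a10, the zinc and manganese exporters Slc30a2, Slc30a4 and Slc30a10, and the metallothioneins Mt1 and Mt2. The genes were taken by name with earlier results of these data known, and all 9 were present in both deposited expression tables. RNA was sequenced from 3 kinds of sample. The 6 MEF libraries are mouse embryonic fibroblasts, taken from E13.5 embryos and labelled C57BL/6 with the genotype Nkx3-1tm2(LacZ)Mms /+. The 6 prostate libraries are wild-type C57BL/6 prostate at 6 weeks. The 7 renal graft libraries, also labelled C57BL/6, are induced mouse epithelial cells mixed with rat urogenital mesenchyme and grown for 6 weeks under the kidney capsule of nude mice. The induced cells were derived from MEFs by retroviruses for c-MYC, KLF4, SOX2 and OCT4, so the grafts carry those transgenes. The first table holds 5 grafts, which by the study's supplement come from cells that also carried lentiviral transgenes, NKX3.1 and FOXA1 among them, and the second holds the other 2, FS022 and FS023, which by elimination lacked this lentiviral combination. The sample labels do not separate these 2 kinds. A graft holds 3 sources of RNA, the induced mouse cells, rat mesenchyme and cells of the nude mouse host, and in bulk RNA a smaller number of cells cannot be told apart from less RNA per cell.

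Zinc enters the cytosol through transporters of the SLC39 (ZIP) family and leaves it, for the outside or for vesicles, through transporters of the SLC30 (ZnT) family. Metallothioneins are small cysteine-rich proteins that bind the metal, and their genes are transcribed through metal response elements read by the zinc sensor MTF1. The prostate epithelium is known for holding and secreting large amounts of zinc and citrate.

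The promoter sites of Mt1 and Mt2 are shown because both genes are textbook targets of metal response elements. Cores of this element, written TGCACNC and TGCGCNC, were searched on both strands from 250 bases before to 50 bases after every annotated start of a protein-coding transcript (GENCODE M1 on NCBIM37, the mm9 assembly). Mt1 lies at chr8:96702989-96704225 and Mt2 at chr8:96696518-96697467, both on the plus strand, with 5521 bases between them. The window of the first annotated Mt1 start held 3 matches, that of the second, 122 bases downstream, held 5, and that of the single Mt2 start held 4. Of 43703 starts in 20270 genes, 30.4% held at least 1 match, 2.45% at least 3, 0.609% at least 4 and 0.178% at least 5. These shares are per start and not per gene. The sites are written 5′ to 3′ on the gene's strand, with the core in capitals and its first base counted from the start site. For Mt1 the positions are counted from the second annotated start, at 96703111, whose window held all 5 sites. Where a match is marked minus, the core reads on the opposite strand.
Mt1, chr8:96702958-96702980, core at -145: tcccgctgTGCACACtggcgctc
Mt1, chr8:96702983-96703005, core at -120: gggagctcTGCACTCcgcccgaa
Mt1, chr8:96703001-96703023, core at -102: ccgaaaagTGCGCTCggctctgc
Mt1, chr8:96703065-96703087, minus, core at -38: cgcctgctGGGTGCAaacccttt
Mt1, chr8:96703079-96703101, core at -24: aaacccttTGCGCCCggactcgt
Mt2, chr8:96696287-96696309, core at -223: atcgcctcTGCACCCggcccctc
Mt2, chr8:96696382-96696404, core at -128: agacccttTGCGCTCagctcctt
Mt2, chr8:96696460-96696482, minus, core at -50: gggagggcGTGTGCAggctctgt
Mt2, chr8:96696514-96696536, minus, core at 5: ttcgggtcGTGCGCAggcccagg
The windows of the annotated starts held at most 3 matches for Slc30a4 and Slc30a10, at most 2 for Slc30a2, at most 1 for Slc39a7 and Slc39a8, and 0 for Slc39a1 and Slc39a10. Among the 3 matches of Slc30a10, 2 are the same palindromic spot read on both strands. A match is a run of letters in the window and was not tested as a site.

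The libraries of the first table held 16767302 to 26152359 reads on genes, and those of the second 6629670 and 9662066. Values are the deposited log2 values, on which 3 reads correspond to 1.68 to 2.34 in the first table and to 3.12 and 2.70 in FS022 and FS023. Prostate libraries stood apart for the secretory markers Pbsn and Sbp, whose lowest log2 values there were 16.88 and 19.62, against highest values of 8.32 and 11.13 in the first-table grafts and 8.55 and 11.23 in MEFs. The lowest MEF values were 0.02 for Pbsn and -1.61 for Sbp, with 2 and 1 of the 6 MEF libraries at or under 3 reads. The keratin Krt8 overlapped between prostate (12.49 to 13.34) and the first-table grafts (12.43 to 13.84). The 6 luminal markers (Pbsn, Sbp, Spink3, Msmb, Krt8 and Krt18) summed to 1.11e+06 to 2.32e+06 normalized reads, against 12768 to 26355 in the first-table grafts and 47 to 3509 in MEFs, and most of that sum was Sbp in prostate and Krt8 and Krt18 in the grafts. The 9 kidney markers summed to 85758, 1344, 171959, 7169 and 164462 normalized reads in the first-table grafts, named FS002, FS003, FS005, FS007 and FS008 in that order, to 37464 and 2931 in FS022 and FS023, to 10 to 108 in prostate and to 152 to 354 in MEFs. Kidney transcripts, Kap among them, were therefore measured in every graft library, at levels that differed widely between libraries. The MEF libraries fell into 3 close pairs, FS015 with FS020, FS016 with FS019 and FS017 with FS018. Within pairs the log2 differences had an SD of 0.049 to 0.114 over genes, against 0.277 to 0.334 between libraries of different pairs. The differences within pairs still exceeded sampling noise (chi-square per degree of freedom 7.76 to 77.9), which does not show that paired libraries are independent. No libraries were merged in the main comparisons, so a p-value against MEFs counts all 6 as separate. The labels do not say whether samples of a group came from separate cultures or animals, so the p-values measure only the spread between these samples.

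Genes were called at a Benjamini-Hochberg adjusted p under 0.05 in limma, over all genes tested, when the log2 fold change also reached 1 in either direction (the minimum fold). In prostate compared with MEFs, 5 of the 9 genes were called higher (Slc39a8, Slc30a2, Slc30a10, Mt1 and Mt2) and 2 lower (Slc39a1 and Slc30a4). Of all 14560 genes tested, 48.3% were called, 27.8% higher and 20.5% lower. In the first-table grafts compared with MEFs, Slc39a8, Slc30a2, Mt1 and Mt2 were called higher, and Slc39a7 and Slc30a4 lower, where 41.9% of 16121 genes were called, 29.9% higher and 12.0% lower. In prostate compared with the grafts, 6 genes were called higher (Slc39a7, Slc39a8, Slc30a2, Slc30a10, Mt1 and Mt2) and 0 lower, where 33.3% of 16353 genes were called, 10.3% higher and 23.0% lower. The groups did not overlap for 8, 7 and 4 of the 9 genes in these 3 comparisons, against 66.7%, 47.3% and 37.2% of all genes tested. The comparisons share samples pairwise and are not independent of each other. The median log2 fold change of the 9 genes was 4.27, 2.46 and 1.76, beside 0.17, 0.26 and -0.11 over all genes tested. Because the 9 genes were chosen with earlier results known, these medians and counts are a description and not a test of zinc genes.

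**Figure D1:**
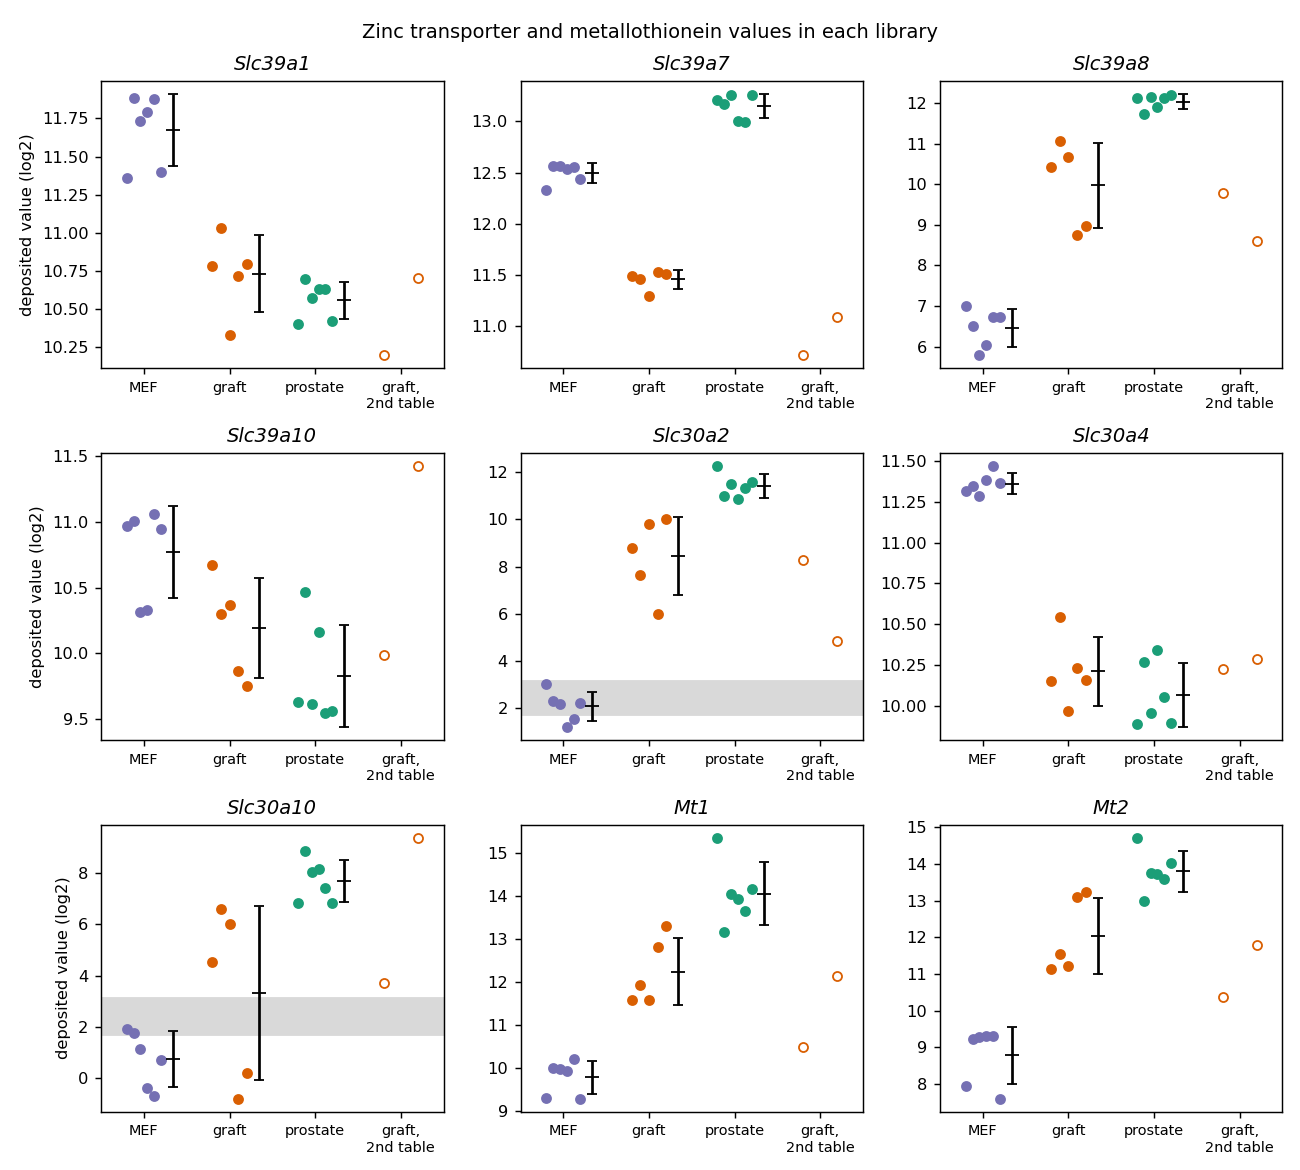
Deposited log2 value of each of the 9 genes (y axis) in every library, grouped on the x axis as MEF (6), first-table graft (5), prostate (6) and second-table graft (2, open circles, normalized separately). Black marks are the mean ± SD and the grey band is the range of the 3-read level. Slc39a8 and Slc30a2 step up from MEFs through grafts to prostate without overlap, whereas Slc39a1 and Slc30a4 are highest in MEFs.

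Among the 4 importers examined, Slc39a8 (ZIP8, a plasma membrane importer of zinc and manganese, chr3:135488243-135551536) differed most between the groups. Its log2 value ran from 11.72 through a median of 12.13 to 12.19 in prostate and from 5.79 through 6.62 to 7.01 in MEFs. In the 5 grafts, taken in the order given above, the values were 10.42, 11.06, 10.68, 8.76 and 8.97. Every graft lay between the highest MEF and the lowest prostate library, and FS007 and FS008 lay more than 1 log2 unit below the other grafts. Prostate was higher than MEFs by 5.57 ± 0.19 (log2, SE, adjusted p 3.77e-11 in limma), a 47.5-fold difference. The grafts were higher than MEFs by 3.51 ± 0.43 (adjusted p 3.36e-05), and prostate was higher than the grafts by 2.06 ± 0.39 (adjusted p 0.000937). With only the 2 grafts of lowest kidney marker sum, FS003 and FS007, the last 2 differences were 3.45 and 2.13.

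Slc39a7 (ZIP7, which releases zinc from the endoplasmic reticulum, chr17:34165212-34168635) had a different order, with prostate above MEFs and MEFs above grafts. Its log2 values were 11.49, 11.46, 11.29, 11.53 and 11.51 in the 5 grafts, 12.33 to 12.56 in MEFs (median 12.55) and 13.00 to 13.26 in prostate (median 13.19). The 3 groups did not overlap, and the SD within each was at most 0.12. Prostate was 3.23-fold higher than the grafts (log2 1.69 ± 0.08, adjusted p 1.53e-07 in limma). Relative to MEFs the grafts were lower by a log2 fold change of -1.04 ± 0.08 (adjusted p 8.56e-07), just past the minimum fold, and it became -0.60 under quantile normalization and -0.999 without FS005. The log2 difference of prostate from MEFs was 0.65 ± 0.07 (adjusted p 1.09e-06), below the minimum fold. Exons of the processed transcript Gm20427 overlap Slc39a7 on the same strand.

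Slc39a1 (ZIP1, the importer most often assigned zinc uptake in prostate cells, chr3:90052094-90057534) was lower in prostate than in MEFs. Its log2 values were 10.40 to 10.70 in prostate (median 10.60) and 11.36 to 11.88 in MEFs (median 11.76). In the 5 grafts they were 10.78, 11.03, 10.33, 10.72 and 10.80. Grafts and prostate overlapped, and neither overlapped the MEFs. The log2 fold change of prostate against MEFs was -1.11 ± 0.10 (adjusted p 3.26e-07 in limma), which became -0.92 under quantile normalization, below the minimum fold. That of grafts against MEFs was -0.94 ± 0.14 (adjusted p 0.000157), short of the minimum fold, which it reached without FS003 (-1.02) or FS015 (-1.004). Prostate and grafts differed by -0.17 ± 0.12 (adjusted p 0.228), which did not pass. In the close MEF pair FS015 and FS020, Slc39a1 was at 11.36 and 11.40, below the 11.73 to 11.88 of the other 4 MEF libraries.

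Slc39a10 (ZIP10, a plasma membrane importer, chr1:46864389-46910891) was called in none of the 3 comparisons. Log2 values were 10.67, 10.30, 10.37, 9.87 and 9.75 in the 5 grafts, 9.54 to 10.47 in prostate (median 9.62) and 10.31 to 11.06 in MEFs (median 10.96). The ranges of all 3 groups overlapped. The difference of prostate from MEFs, -0.94 ± 0.19 (adjusted p 0.000564 in limma), reached -1.07, -1.01, -1.03 and -1.03 when FS010, FS012, FS017 or FS018 was left out. The MEF libraries FS017 and FS018, a close pair, were at 10.31 and 10.33, and the other 4 at 10.95 to 11.06.

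Of the 3 exporters examined, Slc30a2 (ZnT2, which loads zinc into vesicles and is known for secretion of zinc into milk, chr4:133899096-133910399) differed most from MEFs in both tissues. In prostate it ran from 10.88 through a median of 11.41 to 12.28 on the log2 scale, and in MEFs from 1.19 through 2.18 to 2.99, where 2 of 6 libraries had 3 reads or fewer. The 5 grafts, from FS002 to FS008, had 8.78, 7.63, 9.80, 6.00 and 10.01. The groups did not overlap, and the graft values spanned 16.2-fold. The fitted log2 differences were 9.36 ± 0.30 for prostate against MEFs (adjusted p 3.18e-11 in limma), 6.38 ± 0.69 for grafts against MEFs (1.31e-05) and 2.98 ± 0.63 for prostate against grafts (0.00205). Because the MEF values rest on a few reads, a pseudocount of 10 lowered the first to 7.58 and the second to 4.66, both still called.

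The spread of Slc30a2 among grafts moved with the kidney markers. The 3 grafts with the highest kidney marker sums, FS005, FS008 and FS002, were also the 3 highest for Slc30a2, and FS003 and FS007, with sums of 1344 and 7169 normalized reads, were the lowest. With FS003 and FS007 alone the grafts remained above MEFs (log2 difference 4.75, adjusted p 0.000619 in limma), and prostate was above them by 4.61 in place of 2.98. Leaving out FS007 took the difference of prostate from grafts to 2.37 and that of grafts from MEFs to 6.997. The part of kidney RNA in the graft values was not tested.

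**Figure D2:**
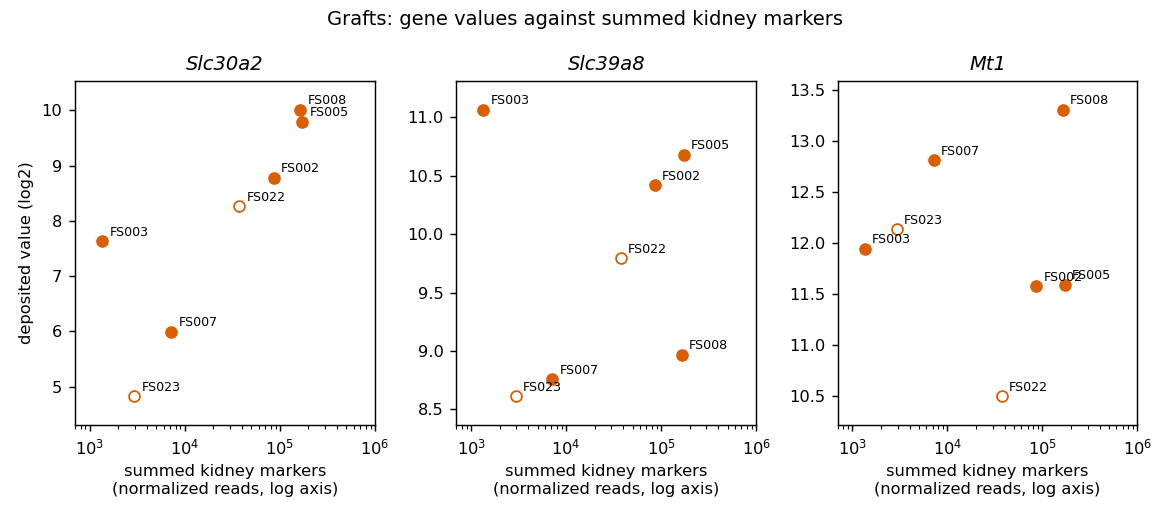
Deposited log2 value (y axis) of Slc30a2, Slc39a8 and Mt1 in each graft against the summed normalized reads of 9 kidney markers (x axis, log scale). Filled circles are the 5 first-table grafts and open circles the 2 grafts of the second table, which were normalized separately. The 3 first-table grafts with the highest kidney sums have the highest Slc30a2 values, between 8.78 and 10.01. Among the first-table grafts Slc39a8 is highest in FS003 and lowest in FS007, the 2 with the lowest kidney sums.

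Slc30a4 (ZnT4, a transporter of Golgi and secretory vesicles mutated in lethal milk mice, chr2:122506969-122528399) went the other way. It was at 11.29 to 11.47 in MEFs (median 11.36), at 9.89 to 10.34 in prostate (median 10.00) and at 10.15, 10.55, 9.97, 10.23 and 10.16 in the 5 grafts, on the log2 scale. All graft and prostate libraries lay below all MEF libraries and overlapped each other. The log2 fold change against MEFs was -1.30 ± 0.08 in prostate (adjusted p 8.97e-09 in limma) and -1.15 ± 0.10 in grafts (2.24e-06). Prostate and grafts differed by -0.15 ± 0.12 (adjusted p 0.328), which did not pass. The graft value became -0.96 under quantile normalization and -0.97 with FS003 and FS007 alone, both under the minimum fold. A lincRNA on the other strand, 4930417H01Rik, overlaps Slc30a4, and the libraries do not mark strand.

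Slc30a10 (ZnT10, best known as a manganese exporter, chr1:187278727-187292641) was highest in prostate among the first-table groups and near the limit of detection in MEFs and in 2 of the 5 grafts. Its log2 values were 6.82 to 8.86 in prostate (median 7.72). In the grafts FS002, FS003 and FS005 they were 4.54, 6.59 and 6.01, and in FS007 and FS008 -0.79 and 0.22, at or under 3 reads. The MEFs lay between -0.70 and 1.92, with 5 of 6 at or under 3 reads. Every prostate library was thus above every other library of the first table, and the grafts split into 3 with reads of Slc30a10 and 2 without a detectable level. The log2 difference of prostate was 6.95 ± 0.52 from MEFs (adjusted p 4.20e-08 in limma) and 4.37 ± 1.27 from grafts (0.0122). These fitted sizes rest on values near zero reads and fell to 4.18 and 2.78 with a pseudocount of 10. Without FS007 or FS008 the difference of prostate from grafts was 3.34 or 3.597, and without FS003 or FS005 it was 5.19 or 5.04. The difference of grafts from MEFs, 2.58 ± 1.36 (adjusted p 0.115), did not pass, but did without FS007 (3.60) or without FS008 (3.35). Exons of the lincRNA Gm2061 overlap Slc30a10 on the other strand.

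Both metallothioneins were lowest in MEFs and highest in prostate. Mt1 had log2 values of 13.17 to 15.36 in prostate (median 13.99), 9.29 to 10.21 in MEFs (median 9.95) and 11.58, 11.94, 11.59, 12.81 and 13.31 in the 5 grafts. Mt2 had 12.99 to 14.71 in prostate (median 13.74), 7.60 to 9.31 in MEFs (median 9.26) and 11.14, 11.53, 11.22, 13.09 and 13.23 in the grafts. For both genes the grafts FS007 and FS008 were the highest. Both exceeded the lowest prostate library, FS010, for Mt2 (12.99), but for Mt1 (13.17) only FS008 did. All grafts exceeded all MEFs. FS007 and FS008 differ widely in kidney marker sum (7169 and 164462 normalized reads).

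Prostate exceeded MEFs by 4.27 ± 0.30 for Mt1 and 5.02 ± 0.35 for Mt2 (log2, SE, adjusted p 2.55e-08 and 2.40e-08 in limma), 19.3-fold and 32.5-fold. The grafts exceeded MEFs by 2.46 ± 0.33 and 3.26 ± 0.49 (adjusted p 6.08e-05 and 0.000157). Prostate exceeded the grafts by 1.81 ± 0.41 and 1.76 ± 0.44 (adjusted p 0.00303 and 0.00533), with the overlap described above. Together Mt1 and Mt2 took 0.0927% to 0.322% of the reads on genes in prostate, 0.0377% to 0.127% in grafts and 0.00438% to 0.00926% in MEFs.

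The balance of the metallothioneins was compared as Mt1 minus Mt2. Mt1 exceeded Mt2 by 1.01 ± 0.42 (log2, SD, n = 6) in MEFs, 0.20 ± 0.30 (n = 5) in grafts and 0.26 ± 0.20 (n = 6) in prostate. Prostate and MEFs overlapped, with the prostate library FS009 at 0.641 and the MEF library FS018 at 0.631. In FS015 and FS020, the excess was 1.36 and 1.69, above the 0.63 to 0.89 of the other 4 MEF libraries, and Mt2 was at 7.95 and 7.60 against 9.23 to 9.31. The same pair also held 5644 and 4918 normalized reads summed over the 5 leukocyte markers, against 72 to 154 in the other MEF libraries. In both, 3 of the 5 markers (Ptprc, Cd68 and Lyz2) were above 3 reads, while Cd3e and Cd79a were not. The part of this leukocyte difference in the metallothionein values was not tested. By the study's methods, the cultured MEFs had been depleted of CD45+, Ter119+, CD31+, Mac-1+ and EpCAM+ cells by sorting. The excess in prostate was lower than in MEFs by a log2 difference of -0.75 (two-sided exact permutation test, p = 0.00433, adjusted over 3 comparisons 0.00649), and in grafts by -0.81 (p = 0.00433, adjusted 0.00649). The excess followed the close MEF pairs, and with each pair averaged to 1 value (n = 3) the exact permutation p was 0.0238 and 0.0357, the smallest these numbers allow, and neither passed after adjustment (0.0536 for both). Prostate and grafts differed by 0.05 (exact permutation p = 0.736), which did not pass.

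**Figure D3:**
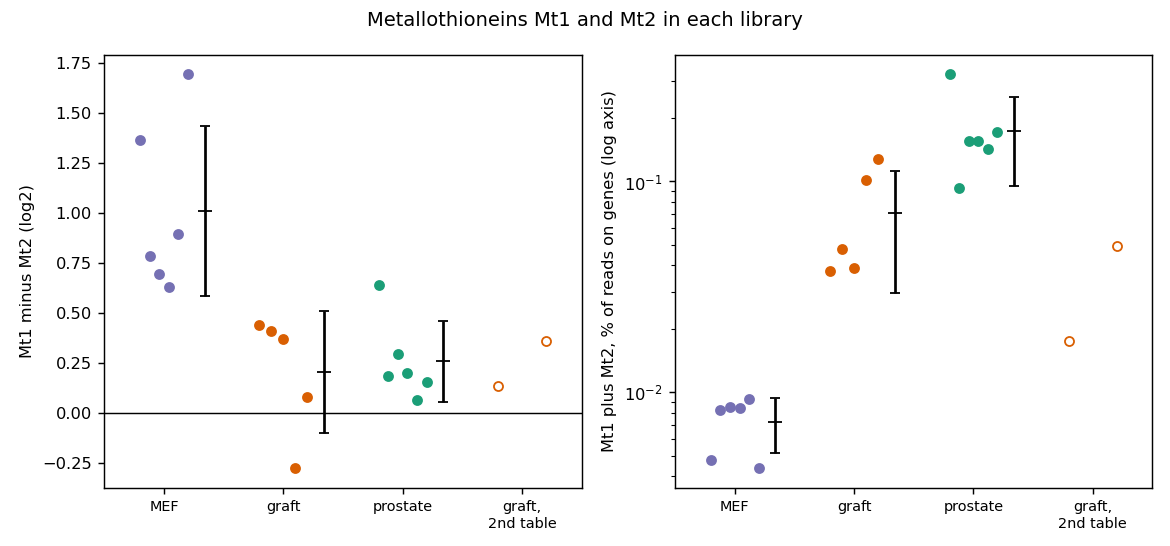
Left, the log2 value of Mt1 minus that of Mt2 in each library. Right, Mt1 and Mt2 together as a percentage of the reads on genes (log axis). Points are libraries by group, open circles the second-table grafts, and black marks the mean ± SD. All 6 MEF libraries lie at or above 0.63 on the left and below 0.01% on the right. On the left the prostate library FS009 (0.641) lies above the lowest MEF library, FS018 (0.631).

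Between-gene order was read per kilobase of exon, in normalized reads. In prostate the medians were 24631 for Mt2 and 21601 for Mt1, with overlapping ranges, then 3590 for Slc39a7. The order of the 2 metallothionein medians depends on the exon length used (556 bases for Mt2, 753 for Mt1). Before division by length, Mt1 exceeded Mt2 in every prostate library. Slc30a2, Slc39a1 and Slc39a8 followed at 766, 657 and 583 with overlapping ranges, then Slc30a4 and Slc39a10 at 187 and 132, also overlapping, and Slc30a10 at 36.7. In MEFs the order of the median levels per kilobase began with Slc39a7 at 2308, followed by Slc39a1 at 1469, Mt1 at 1315 and Mt2 at 1098, whose ranges overlapped. Slc30a4 and Slc39a10 were at 479 and 334 per kilobase, and Slc39a8 and Slc30a2 at 12.6 and 0.856. In grafts Mt2 and Mt1 led at 5332 and 5231 per kilobase, overlapping, ahead of Slc39a7 at 1107 and Slc39a1 at 744. The graft levels of Slc39a10, Slc30a4, Slc39a8 and Slc30a2, at 211, 208, 178 and 123 per kilobase, overlapped. The exporter Slc30a2 thus stood below Slc30a4 in MEFs and above it in prostate, with no overlap in either.

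**Figure D4:**
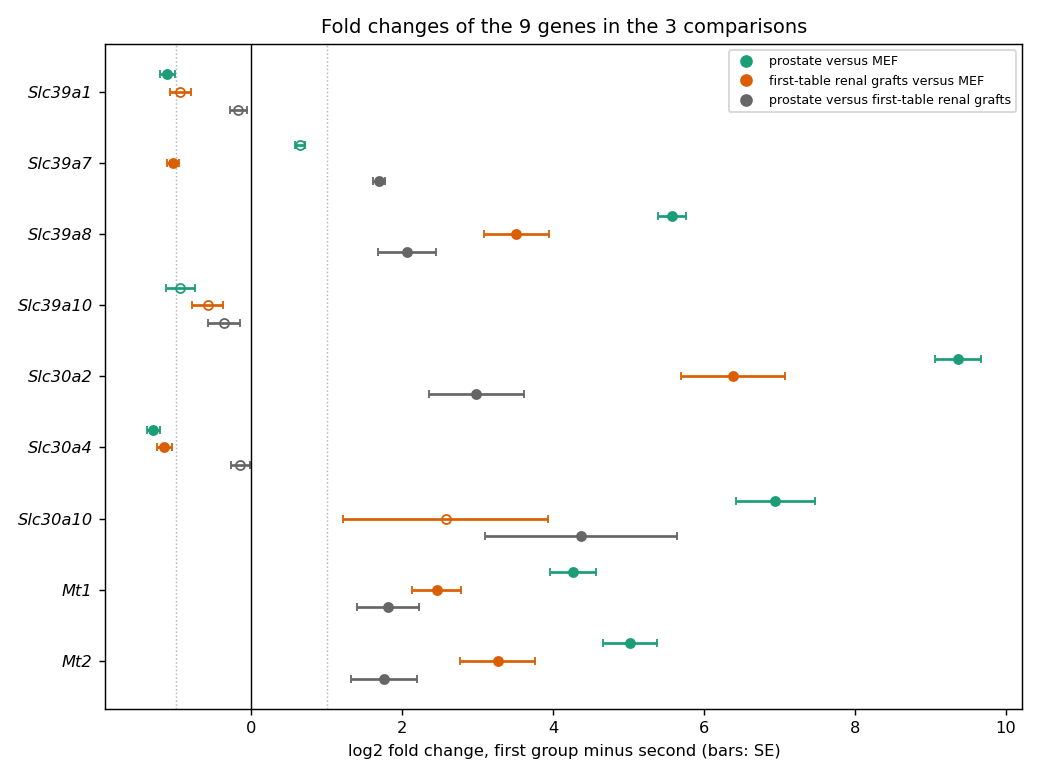
Log2 fold change (x axis, with SE bars) of each of the 9 genes (y axis) in prostate against MEFs, first-table grafts against MEFs and prostate against first-table grafts. Filled circles were called and open circles were not, and dotted lines mark the minimum fold. Slc30a2 has the highest fold change against MEFs, at 9.36 in prostate and 6.38 in grafts.

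The expression pattern most like that of each gene was sought by Pearson's r over the 17 libraries of the first table, among 16101 genes and as a description of 3 groups that share libraries. Mt1 and Mt2 had an r of 0.989 with each other, and both resembled Ppp1r37 (0.990 and 0.983) and Aftph (0.987 and 0.981). Slc39a7 was closest to Scfd1 (0.991), Rpn2 (0.989) and P4hb (0.985), of which P4hb encodes the beta subunit of prolyl 4-hydroxylase in the endoplasmic reticulum. Slc39a8 was closest to Arhgap8 (0.992), Foxa1 (0.989), which encodes a pioneer transcription factor of the prostate epithelium, and Slc44a3 (0.988). By the study's methods the lentiviral Foxa1 was the mouse gene, so Foxa1 values of the first-table grafts can include transgene reads. The study's supplement takes a lower ratio of 3′ untranslated to coding reads as a mark of transgene transcripts. For Foxa1 this ratio was lower in FS007 and FS008 than in FS002, FS003 and FS005. Its relation to the values of the zinc genes was not tested. Slc30a2 was closest to Slc25a23, Bckdha and Aldh6a1 (all 0.989), the last pair encoding mitochondrial enzymes of branched-chain amino acid breakdown. Slc30a4 was closest to the collagen genes Col5a1 (0.989) and Col1a1 (0.983) and to Inhba (0.984), and Slc39a1 to Stard13 (0.983), Timp1 (0.977) and Myo1c (0.976). For Slc30a10 the closest were Upk1a (0.963), Cntnap2 (0.963) and Camk2b (0.960), and for Slc39a10 Alx1 (0.920), Adprh (0.914) and Dpysl3 (0.900).

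The other genes of zinc transport and citrate metabolism numbered 31, taken by family and pathway. In prostate compared with MEFs 26 passed the filter on low values, and 6 were called higher and 3 lower, where 48.3% of all genes tested were called. In grafts compared with MEFs 30 passed it, and 10 were higher and 2 lower, where 41.9% of all genes were called. In prostate compared with grafts 4 of 30 were higher and 7 lower, where 33.3% were called. Their median log2 fold changes of 0.20, 0.34 and -0.17 lay close to the 0.17, 0.26 and -0.11 of all genes tested.

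Of the remaining importers, Slc39a4 (ZIP4, the intestinal zinc importer mutated in acrodermatitis enteropathica) was higher than in MEFs in both tissues, with log2 differences of 7.11 ± 0.53 in prostate and 8.06 ± 0.96 in grafts. It was at 7.25 to 8.11 in prostate, at 6.20 to 11.13 in grafts, and at or under 3 reads in 5 of 6 MEF libraries. Slc39a6 was lower than in MEFs in both, by log2 changes of -2.10 ± 0.17 and -2.11 ± 0.11. Slc39a13 was lower by -1.41 ± 0.11 in prostate and -2.60 ± 0.21 in grafts, and higher in prostate than in grafts by 1.20 ± 0.20, a call lost without FS007 (0.99). Slc39a2, at or under 3 reads in 3 of 6 MEF libraries, was higher than in MEFs by 3.03 ± 0.65 in prostate and 3.27 ± 0.86 in grafts. The graft call was lost under quantile normalization (1.085) and with the MEF libraries FS019 and FS020 alone (3.14, adjusted p 0.0613 in limma). Slc39a9 was higher in prostate than in grafts by 1.23 ± 0.11 and than in MEFs by 1.42 ± 0.09. Slc39a5 and Slc39a12 were lower in prostate than in grafts by -3.83 ± 0.93 and -3.84 ± 1.10, calls that were lost with FS003 and FS007 as the only grafts (-2.82 and -3.21, adjusted p 0.0904 and 0.0996 in limma). Slc39a12 was also higher in grafts than in MEFs, at 4.82 ± 1.25. This call was lost in the same way (4.19, adjusted p 0.0730 in limma) and with the MEF libraries FS019 and FS020 alone (3.87, adjusted p 0.147). Slc39a12 was at or under 3 reads in 5 of 6 prostate libraries, 5 of 6 MEF libraries and 1 of 5 grafts. Both of its fitted differences therefore rest on groups near zero reads. Slc39a5 too was higher in grafts than in MEFs, at 3.82 ± 0.90. That call was lost under quantile normalization, with FS003 and FS007 as the only grafts, and with FS019 and FS020 as the only MEFs.

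The remaining exporters held fewer called genes. None of the 5 tested was called between prostate and MEFs. There, Slc30a1, Slc30a5, Slc30a7 and Slc30a9 had an adjusted p of 0.00490 or less in limma and stayed below the minimum fold (0.71, 0.66, 0.90 and -0.52). In grafts compared with MEFs, 2 of 6 tested were called higher, Slc30a1 and Slc30a3. Slc30a1 was higher by 1.31 ± 0.26 (adjusted p 0.00109 in limma), and grafts and MEFs did not overlap. This call was kept under quantile normalization and with FS003 and FS007 as the only grafts. Slc30a7, a transporter of the Golgi, was higher in prostate than in grafts by 1.63 ± 0.12, at 11.63 to 12.06 against 9.92 to 10.51. Slc30a3, the transporter of synaptic vesicles, was lower in prostate than in grafts by -4.35 ± 0.63, and all 6 prostate libraries had 3 reads or fewer. It was higher in grafts than in MEFs by 3.63 ± 0.67 (adjusted p 0.000639 in limma), a call lost under quantile normalization. In MEFs, 5 of 6 libraries had 3 reads or fewer for Slc30a3. The zinc sensor Mtf1 was at 9.01 to 9.25 in MEFs, 8.95 to 9.28 in grafts and 9.29 to 9.62 in prostate, and was not called in any comparison.

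The neighbouring metallothionein genes did not share one pattern. Mt3 was higher than in MEFs by 7.20 ± 0.38 in prostate and 6.82 ± 0.66 in grafts (log2, adjusted p 1.73e-09 and 5.87e-06 in limma). Its values were 8.39 to 9.57 in prostate, 9.32, 10.05, 7.85, 6.54 and 8.96 in the 5 grafts, and 0.05 to 2.79 in MEFs, where 3 of 6 libraries had 3 reads or fewer. Mt4, a metallothionein of stratified epithelia, was at 4.84, 6.01, 2.54, 9.10 and 2.92 in the grafts. It was at or under 3 reads in all 6 prostate and all 6 MEF libraries. The fitted differences of 4.34 ± 1.10 for grafts over MEFs and -5.26 ± 1.19 for prostate against grafts therefore rest on groups near zero reads. The first was no longer called under quantile normalization (2.60) or with the MEF libraries FS019 and FS020 alone (3.91, adjusted p 0.126), and without FS007 the pair became 3.33 and -4.26. FS007, highest of the grafts for Mt4, was the lowest for Mt3.

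**Figure D5:**
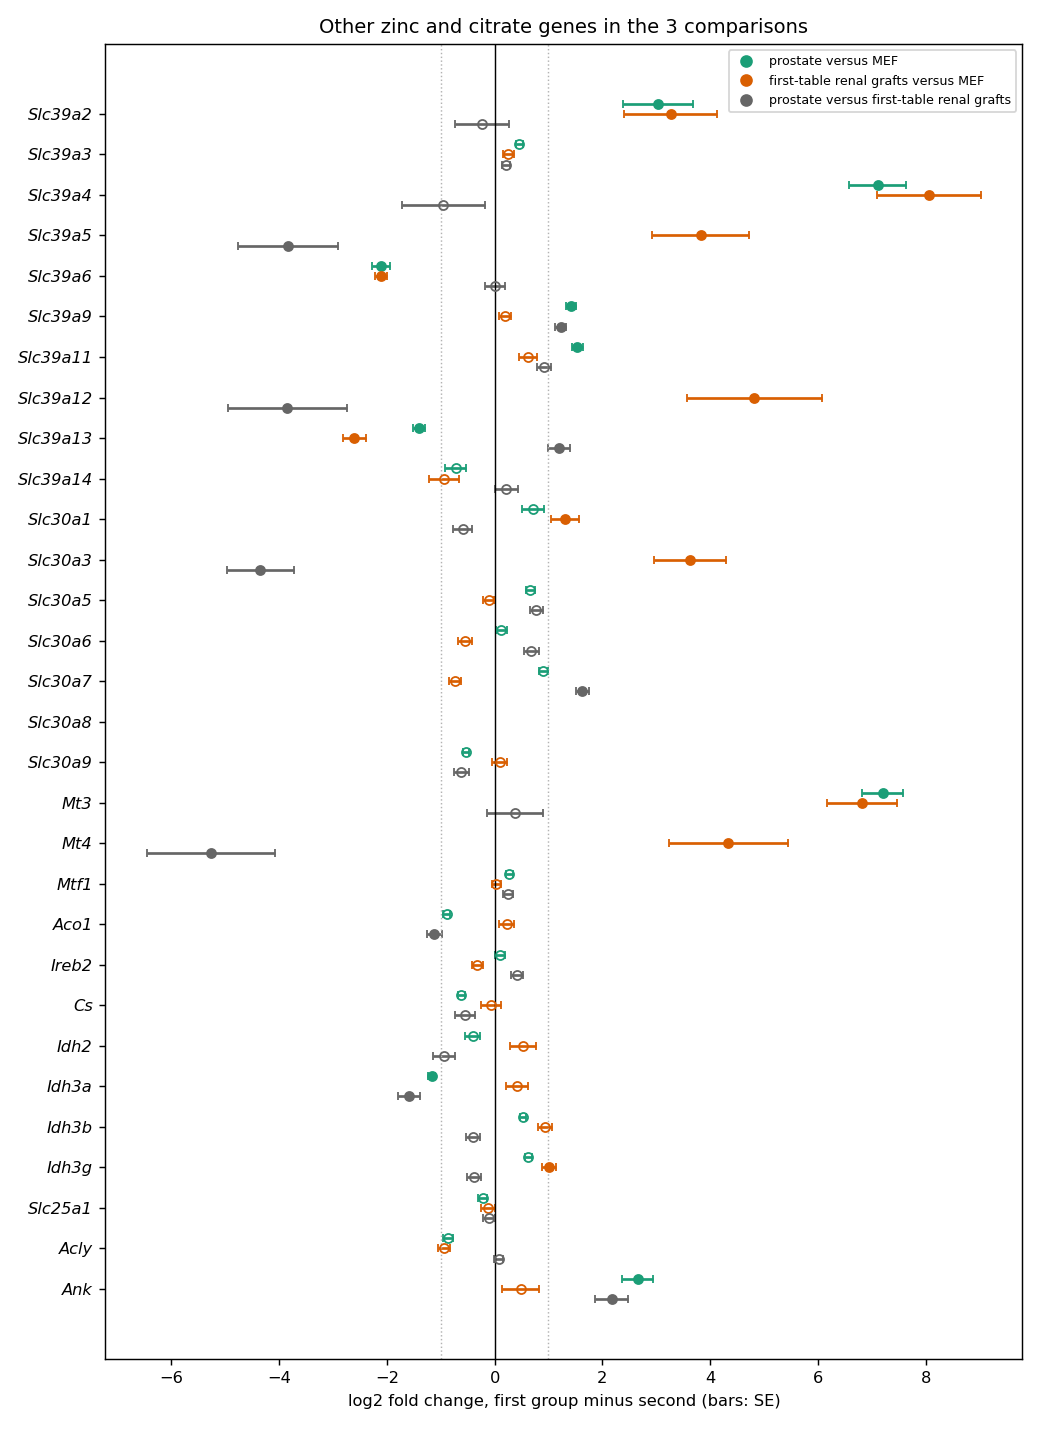
Log2 fold change (x axis, with SE bars) of 30 of the other zinc and citrate genes (y axis) in the 3 comparisons. Filled circles were called, open circles were not, and a gene without a circle did not pass the filter on low values. Mt3 and Slc39a4 lie at 6.82 or more above MEFs in both tissues, whereas Slc39a6 lies at -2.10 in prostate and -2.11 in grafts.

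Among the citrate genes, Aco1, the cytosolic aconitase that doubles as the iron regulatory protein IRP1, was lower in prostate than in grafts by -1.12 ± 0.14 (adjusted p 6.98e-05), at 9.85 to 10.18 against 11.06, 10.70, 11.35, 10.87 and 11.54. With FS003 and FS007 as the only grafts this became -0.80, under the minimum fold. Its log2 difference of prostate from MEFs was -0.89 ± 0.07 (adjusted p 5.83e-08 in limma), also under the minimum fold, and that of grafts was 0.22 ± 0.14 (0.179).

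Ank (Ankh), a membrane protein through which citrate and pyrophosphate leave the cell, was higher in prostate than in both other groups. Its log2 values were 12.43 to 13.70 in prostate, 10.30, 10.67, 10.67, 11.92 and 11.48 in the grafts and 9.74 to 11.10 in MEFs, and prostate did not overlap either group. The log2 difference of prostate was 2.66 ± 0.28 from MEFs and 2.18 ± 0.31 from grafts (adjusted p 1.40e-06 and 0.000132 in limma). Idh3a, a subunit of the mitochondrial isocitrate dehydrogenase of the citric acid cycle, was lower in prostate than in MEFs by -1.16 ± 0.07 and than in grafts by -1.59 ± 0.21 (adjusted p 3.00e-09 and 8.73e-05). It did not pass between grafts and MEFs (0.42 ± 0.20, adjusted p 0.0872). Idh3g, the gamma subunit, was called in grafts against MEFs at 1.01 ± 0.14, and the call was lost with FS003 and FS007 alone (0.74) and without any one of FS005, FS008, FS015 and FS020 (0.88 at the lowest).

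The 2 grafts of the second table were normalized apart from the others, so their values are set side by side and not tested. FS022 and FS023 had log2 values of 10.20 and 10.71 for Slc39a1, 10.72 and 11.09 for Slc39a7, 9.79 and 8.61 for Slc39a8 and 9.98 and 11.43 for Slc39a10. For the exporters they had 8.26 and 4.83 for Slc30a2, 10.22 and 10.29 for Slc30a4 and 3.72 and 9.36 for Slc30a10. Mt1 was at 10.50 and 12.13 and Mt2 at 10.37 and 11.78, with Mt1 above Mt2 by 0.13 and 0.36. Of the pair, FS022 had the higher kidney sum, 37464 against 2931 normalized reads, and the higher Slc30a2 value. FS023 had the higher Slc30a10 and Slc39a10 values, and its Mt3 value of 12.23 lay above the 10.05 of the highest first-table graft. Slc30a4 was nearly equal in both grafts and close to the 9.97 to 10.55 of the first-table grafts. Their smaller depth makes the low value of Slc30a10 in FS022 less precise than the values of the first table.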

How the data were processed

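RNA-seq was analysed in 6 MEF, 6 prostate and 7 renal graft libraries, grouped by the source names in the sample labels. The libraries do not mark strand. The submitters' processing notes name bcl2fastq 1.8.4, TopHat, Cufflinks, DESeq and the mm9 build, and the authors' methods state that raw counts were normalized with DESeq. The deposited log2 values are held in 1 table of 17 libraries and another of 2 and each with 23284 genes. Above a value of 11.5 (up to 15), 100% of values, once back on the linear scale, corresponded to a whole read number within 0.05 reads, given 1 scaling factor per library. This factor gave the reads on genes and the level of 3 reads, which cover counting error only. Lower values carry an added scatter, so reads were not recovered for all genes and no count model was used. All columns of both tables were used.

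The deposited log2 values were compared with limma 3.58.1 (lmFit and eBayes with trend) in R 4.3.3, using the libraries of both groups and keeping genes whose linear mean reached 10. The tables had been normalized separately, so the 3 comparisons were made within the first. Calls needed a Benjamini-Hochberg adjusted p under 0.05 together with a log2 fold change of 1 or more in either direction. The fit was tested on simulated data. Mt1 minus Mt2 was compared by two-sided exact permutation tests, adjusted over the 3 comparisons. Normalized reads, used for marker sums and levels per kilobase, were the back-transformed values. Alternatives were a pseudocount of 10, no filter, a linear mean of at least 50, quantile normalization, median centring, all 17 libraries in the fit, no minimum fold, eBayes without trend, MEF libraries FS019 and FS020 alone (the others hold Pbsn reads) and leaving out each library. Averaging the close MEF pairs and keeping only the grafts FS003 and FS007 were chosen after seeing the data.

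Named in the text are the 9 genes, Aco1, for each comparison the 4 list genes called with the highest fold change in each direction, and for each of the 9 the 3 genes with the highest Pearson's r. A further gene of the citrate list is counted but not reported here by name. Mtf1, Idh3g, Slc30a1, Slc30a5 and Slc30a9 were named outside the naming rule, after their values were seen. All 40 genes of the zinc and citrate list were matched (Ankh as Ank). The 9 genes and the lists were chosen with earlier results of these data known. Positions and promoter windows come from GENCODE M1 on NCBIM37, the build of the files.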

Additional observations from a re-analysis of the deposited data

Results flagged for a closer look

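Among 30 sets of values (the 9 genes and the difference of Mt1 and Mt2, in 3 groups each), 1 library stood apart from its group by Dixon's criterion. Slc39a7 was at 11.29 in the graft FS005, with the nearest graft at 11.46. Chance gives such a gap in about 1 of 20 groups, or 1.5 of these 30. The difference of grafts from MEFs rests on this library for its call, since without FS005 the log2 fold change was -0.999.

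In the second table, which no comparison used, 2 of 18 values lay above all prostate and MEF libraries of the first table. FS023 had 11.43 for Slc39a10, against a highest value of 11.06, and 9.36 for Slc30a10, against 8.86. FS023 was normalized separately, and the differences were not tested.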

How the results depend on the processing

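Over the alternatives, the log2 fold changes of the 9 genes were computed 575 times, of which 556 kept the direction and the side of the threshold, 14 passed it newly, 5 no longer passed and 0 changed sign. In prostate against MEFs, Slc39a1 fell to -0.92 under quantile normalization, and Slc39a10 reached -1.17 with MEF libraries FS019 and FS020 alone. Slc30a10 in grafts against MEFs passed at 2.58 with all 17 libraries in the fit (adjusted p 0.0499). Slc30a10 did not pass a linear mean of at least 50 there and has no value. With no minimum fold, genes called numbered 11772, 10573 and 9093 in prostate against MEFs, grafts against MEFs and prostate against grafts, in place of 7026, 6757 and 5440, and list genes called 32, 28 and 29 of 40 in place of 16, 18 and 17. Quantile normalization moved the share of calls that were higher from 57.6% to 49.8%, from 71.3% to 45.4% and from 30.9% to 54.8%, and the median of all genes to 0.01, -0.14 and 0.12 (log2). Under it 6, 4 and 6 of the 9 genes were called. With FS019 and FS020 alone the Mt1 minus Mt2 differences from MEFs were -1.04 and -1.09 and did not pass (adjusted p 0.143 for both), the smallest that 2 libraries allow.

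Leaving out 1 library gave 6923 to 7125, 6370 to 6858 and 5044 to 5843 genes called, 7 to 8, 5 to 7 and always 6 of the 9 genes, and 16 to 17, 17 to 20 and 16 to 18 list genes. The Mt1 minus Mt2 difference ran from -0.83 to -0.62 (prostate against MEFs), from -0.88 to -0.67 (grafts against MEFs) and from -0.068 to 0.11 (prostate against grafts, with the sign changed in 2 cases). The cause of these changes was not tested. Averaging the close MEF pairs changed none of the calls of the 9 genes. With it the Mt1 minus Mt2 differences from MEFs kept their sizes (-0.75 and -0.81) but did not pass (exact permutation test, adjusted p 0.0536 for both). No paired analysis was possible because the labels carry no replicate numbers.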
